A study of Mus musculus with 11 samples.

Results

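The ADAM, ADAMTS, ADAMTS-like, MMP and TIMP genes were described in hepatic sinusoidal endothelial cells (ECs) of 5 Germ-free and 6 CONV-R mice. Members were taken by name, as every listed gene whose symbol is Adam, Adamts, Adamtsl, Mmp or Timp followed by a number, and 79 of the 29307 listed genes fitted this rule. They comprised 28 ADAM, 19 ADAMTS, 5 ADAMTS-like, 23 MMP and 4 TIMP genes. The mice were C57BL/6J males aged 10 to 12 weeks, of the same colonies and on the same standard diet. Germ-free animals had no microbiota, and CONV-R animals were raised conventionally under specific-pathogen-free conditions. Each library came from the liver of 1 mouse, from cells enriched for CD146 on magnetic beads and then sorted for CD31, CD105 and CD146, and the RNA was amplified before sequencing. As the study describes, Germ-free livers yielded fewer sorted cells, so that cell yield and microbial status cannot be told apart in these libraries.

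These families are the main zinc-dependent proteases that act at the cell surface and in the extracellular matrix. ADAMs are membrane-anchored and shed the outer parts of receptors, ligands and adhesion proteins; ADAMTS enzymes are secreted and trim proteoglycans, procollagens and von Willebrand factor, while ADAMTS-like proteins lack the protease domain and sit in the microfibril network. MMPs degrade collagens, laminins and other matrix proteins, and TIMPs are the inhibitors that close the active sites of MMPs and of several ADAMs and ADAMTS enzymes. In the liver, sinusoidal ECs rest on a loose matrix without a continuous basement membrane, and their neighbours, the stellate cells and Kupffer cells, make many of the same proteases and inhibitors.

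The 11 libraries held 7242717 to 16164588 counts, so that 3 counts, taken as the floor of a library, corresponded to 0.195 to 0.407 CPM (the counts of a gene relative to the TMM-scaled total of its library); this floor covers counting error only. Markers of sinusoidal ECs were strongly present in every library, with sums over 10 genes of 35980 to 44000 CPM in CONV-R and 34100 to 47620 CPM in Germ-free mice, among them *Stab2*, *Lyve1* and *Clec4g*. With edgeR 0 of the 10 were called and 3 had an unadjusted p under 0.05, and DESeq2 called 0. The 5 endothelial and sort marker genes summed to 5661 to 7340 CPM in CONV-R and 5346 to 8732 in Germ-free libraries; both tools called 0 of them, 3 had an unadjusted p under 0.05, and their median log2 fold change was 0.33, with 0.46 for *Pecam1* (CD31), 0.37 for *Mcam* (CD146), 0.33 for *Cdh5*, 0.26 for *Eng* (CD105) and -0.01 for *Tek*. The lists of genes of other cell types were mostly low, and their values stand beside the results they touch. Germ-free replicate 2 had a count in 59.6% of the weakly counted genes left out of the tests, against 16.4% to 34.3% in the other 10 libraries. In bulk RNA, fewer cells of a type and less RNA per cell cannot be told apart.

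Of the 79 members, 33 had enough counts to be tested, and 6 of these had an adjusted p under 0.05 between the groups (quasi-likelihood test of edgeR, adjusted by the Benjamini-Hochberg method over the 12905 genes tested). The inhibitors *Timp4* and *Timp3*, the sheddase *Adam15* and the membrane-type protease *Mmp15* were higher in Germ-free ECs, and *Adam19* and *Adamts12* were lower. The 6 members made 18.2% of those tested, while over all tested genes 7.48% were called, 4.8% as higher and 2.67% as lower. The values of both groups did not overlap for 4 members, *Timp4*, *Timp3*, *Adam19* and *Adamts12*, and among all tested genes this held for 5.59%. Before adjustment, 13 of the 33 members had a p under 0.05, against 23% of all tested genes. The median absolute log2 fold change of the tested members was 0.46, and that of all tested genes 0.24; the signed medians were 0.10 and -0.01. Log2 fold changes are Germ-free minus CONV-R throughout, and a low-count filter lay behind the 33: *Mmp17* passed it through the Germ-free libraries alone, *Mmp21* through the CONV-R libraries alone, and *Mmp11*, *Adam32*, *Adamtsl2* and *Adamtsl5* only with both groups together.

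**Figure D1:**
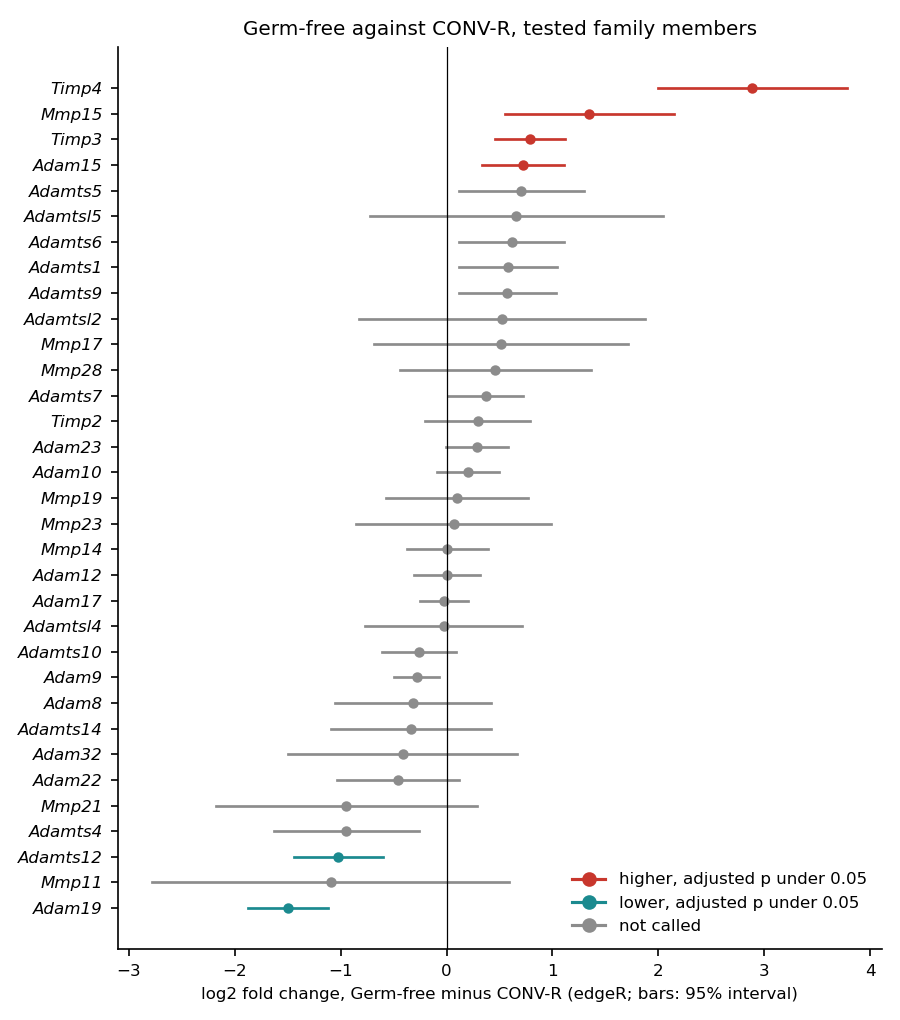
Log2 fold change of each tested member, Germ-free minus CONV-R, with its 95% interval from edgeR (6 CONV-R and 5 Germ-free mice). The 4 members drawn in red and the 2 in teal had an adjusted p under 0.05; *Timp4* at 2.89 and *Adam19* at -1.49 lie farthest from 0 among them.

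The calls were not equally firm. In 11 fits that each left out 1 mouse, in which 4.74% to 9.62% of all tested genes were called, 5 to 7 members were called, and *Timp4*, *Timp3*, *Adam19* and *Adamts12* were called in each. *Mmp15* was called in 3 and *Adam15* in 9 of them. With Germ-free replicates 1 and 6 left out together, a choice made after seeing the data because these 2 libraries had the highest sums of large-vessel and of Kupffer cell markers, 5 members were called, 2 higher and 3 lower, among them *Timp4*, *Adam19* and *Adamts12*; of the 13367 genes tested in that fit 2.9% were called. DESeq2, which called 9.83% of the 15540 genes it tested, called 8 members, adding *Adam33* and *Adamts4*. A two-sided exact permutation test of log2 CPM over the 462 splits of the mice was run for 33 members, without adjustment. The exact permutation test gave p = 0.00216, the smallest p that 5 against 6 mice allow, for *Timp4* and for *Adam19*. For the other 4 called members the exact permutation test gave p = 0.00433 to 0.0411. This did not set those 4 apart, since members that were not called had values in the same range. Among these, the exact permutation test gave p = 0.00433 for *Adam9*, 0.00866 for *Adamts6* and 0.0303 for *Adamts4*.

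Markers of Kupffer cells, the resident macrophages of the liver, moved with the groups. All 10 markers had a positive log2 fold change (median 1.55), 9 had an unadjusted p under 0.05, and edgeR called 7 as higher in Germ-free mice, as did DESeq2. Their summed level was 85.97 to 222.4 CPM in CONV-R mice and 196.8 to 930.7 CPM in Germ-free mice, with the highest value in Germ-free replicate 6. When the mean log2 level of these markers was put into the model as a covariate, a choice made after seeing the data, 83 of the 12905 genes (0.643%) were called, and of the members only *Adam19*. The part of these cells in the results was not tested; the log2 fold change of each called member with the covariate is given with that member.

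The stretches of sequence directly upstream of the 4 members whose groups did not overlap are shown because these genes separated the groups mouse by mouse. RefSeq promoters on GRCm38.p6 were matched by symbol for 49 of the 79 members. Each is printed 5′ to 3′ on the strand of its gene and ends next to the annotated start, and capitals mark matches to any of 5 short motifs. *Timp3* lies at chr10:86300162-86300371 on the plus strand and stops 40 bases short of the RefSeq start, since GENCODE places an exon there. *Timp4* lies at chr6:115252206-115252455 on the minus strand, *Adam19* at chr11:46055734-46055983 on the plus strand (the start nearest to the GENCODE 5′ end, of 3 in RefSeq), and *Adamts12* at chr15:11064523-11064772 on the plus strand.
Timp3: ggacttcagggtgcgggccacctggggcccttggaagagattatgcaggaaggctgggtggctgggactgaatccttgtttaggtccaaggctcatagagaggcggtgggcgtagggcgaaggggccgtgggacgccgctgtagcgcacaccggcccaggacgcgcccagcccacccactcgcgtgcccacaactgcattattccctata
Timp4: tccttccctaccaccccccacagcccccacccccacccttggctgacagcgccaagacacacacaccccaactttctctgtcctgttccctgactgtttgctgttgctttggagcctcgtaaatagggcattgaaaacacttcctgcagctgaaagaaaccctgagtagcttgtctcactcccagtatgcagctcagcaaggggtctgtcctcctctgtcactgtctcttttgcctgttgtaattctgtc
Adam19: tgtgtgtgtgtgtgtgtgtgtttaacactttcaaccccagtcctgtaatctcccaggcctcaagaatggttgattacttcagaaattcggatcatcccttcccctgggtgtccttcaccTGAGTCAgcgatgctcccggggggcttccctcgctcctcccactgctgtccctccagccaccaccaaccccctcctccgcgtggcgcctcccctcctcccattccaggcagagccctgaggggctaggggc
Adamts12: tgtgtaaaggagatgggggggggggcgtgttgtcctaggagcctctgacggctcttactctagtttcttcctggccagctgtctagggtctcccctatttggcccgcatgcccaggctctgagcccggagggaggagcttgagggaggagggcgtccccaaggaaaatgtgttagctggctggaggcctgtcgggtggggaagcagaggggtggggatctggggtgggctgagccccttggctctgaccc

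In the 250 bases before each RefSeq start, G and C made up 65.6% for *Timp3*, 63.2% for *Adamts12*, 60% for *Adam19* and 53.6% for *Timp4*. The motifs were searched on both strands in these letters: TATA box (TATAAA), GC box (GGGCGG), AP-1 (TGACTCA), glucocorticoid receptor half-site (TGTTCT) and E-box (CACGTG). The upstream sequence of *Adam19* held 1 match to AP-1, on the opposite strand and beginning 131 bases before the start, a motif found in 4.46% of the 32851 promoters of the same length. *Timp3* held 1 GC box on the opposite strand, 15 bases before the RefSeq start and thus in the bases not printed, and 32.7% of all promoters had one. None of the 5 motifs was found in the windows of *Timp4* and *Adamts12*; in all promoters the shares were 12.4% for TATAAA, 16.1% for TGTTCT and 6.02% for CACGTG. These are matches of letters in a window and not binding sites.

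Among the TIMPs, *Timp4* had the largest log2 fold change of the 33 tested members. It encodes the inhibitor with the most restricted tissue distribution and lies on chromosome 6 (115241892 to 115252205, GRCm38). In CONV-R ECs it had 0.491 CPM at the lowest, a median of 1.77 and 4.27 at the highest. In Germ-free ECs the values were 6.50, 23.4, 8.67, 25.0 and 17.9 CPM for replicates 1, 2, 4, 5 and 6, so that the lowest Germ-free mouse lay above the highest CONV-R mouse. The group means were 2.14 ± 1.31 (SD, n = 6) and 16.3 ± 8.40 CPM (SD, n = 5), a log2 fold change of 2.89 (standard error 0.42, 95% interval 1.99 to 3.78, adjusted p = 5.27e-04), which is 7.40-fold. Only 164 counts in CONV-R and 754 in Germ-free libraries stood behind this value. With the Kupffer cell covariate the log2 fold change was 2.45 and the adjusted p 0.0774.

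*Timp3*, the inhibitor that binds to the extracellular matrix and restrains ADAM17 and several ADAMTS enzymes, was far more abundant. It lies on chromosome 10 (86300372 to 86349506). In CONV-R ECs it had 385 CPM at the lowest, a median of 546 and 705 at the highest, and in Germ-free ECs 1278, 826, 781, 760 and 1062 CPM for replicates 1, 2, 4, 5 and 6. The groups did not overlap, and the gap between CONV-R replicate 1, the highest of its group, and Germ-free replicate 5 was narrow. Mean levels were 546 ± 108 (SD, n = 6) and 942 ± 223 CPM (SD, n = 5), a log2 fold change of 0.79 (standard error 0.16, 95% interval 0.45 to 1.12, adjusted p = 0.00565). Without Germ-free replicates 1 and 6 together it was 0.53 (adjusted p = 0.0801), and with the Kupffer cell covariate 0.49 (adjusted p = 0.529).

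*Timp2*, which besides inhibiting MMPs takes part in the activation of pro-MMP2 by MMP14, had 13.2 ± 4.42 CPM in CONV-R (SD, n = 6) and 16.2 ± 4.86 in Germ-free ECs (SD, n = 5), and the groups overlapped (log2 fold change 0.29, 95% interval -0.20 to 0.79, adjusted p = 0.494). CONV-R replicate 1, at 21.95 CPM, stood apart from the other 5 CONV-R mice, which had 9.69 to 12.8 CPM. *Timp1*, the inhibitor induced in injured liver, was near the floor with 5 counts over all CONV-R and 15 over all Germ-free libraries and was not tested. Its highest value was 0.155 CPM in CONV-R and 0.529 CPM in Germ-free mice.

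*Timp1*, *Timp3* and *Timp4* lie inside synapsin genes on the opposite strand, and the strand setting of the read counting is not given in the sources used here. *Timp3* shares 1733 of its 8144 exon bases (21.3%) with *Syn3*, and *Timp4* 90 of 5894 (1.53%) with *Syn2*. *Syn3* had means of 4.70 CPM in CONV-R and 6.76 CPM in Germ-free ECs and *Syn2* 1.58 and 3.52 CPM, and neither passed the test (log2 fold change 0.52, adjusted p = 0.337, and 1.12, adjusted p = 0.15). *Timp1* shares no exon base with *Syn1*, which had 1.13 and 1.05 CPM.

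**Figure D2:**
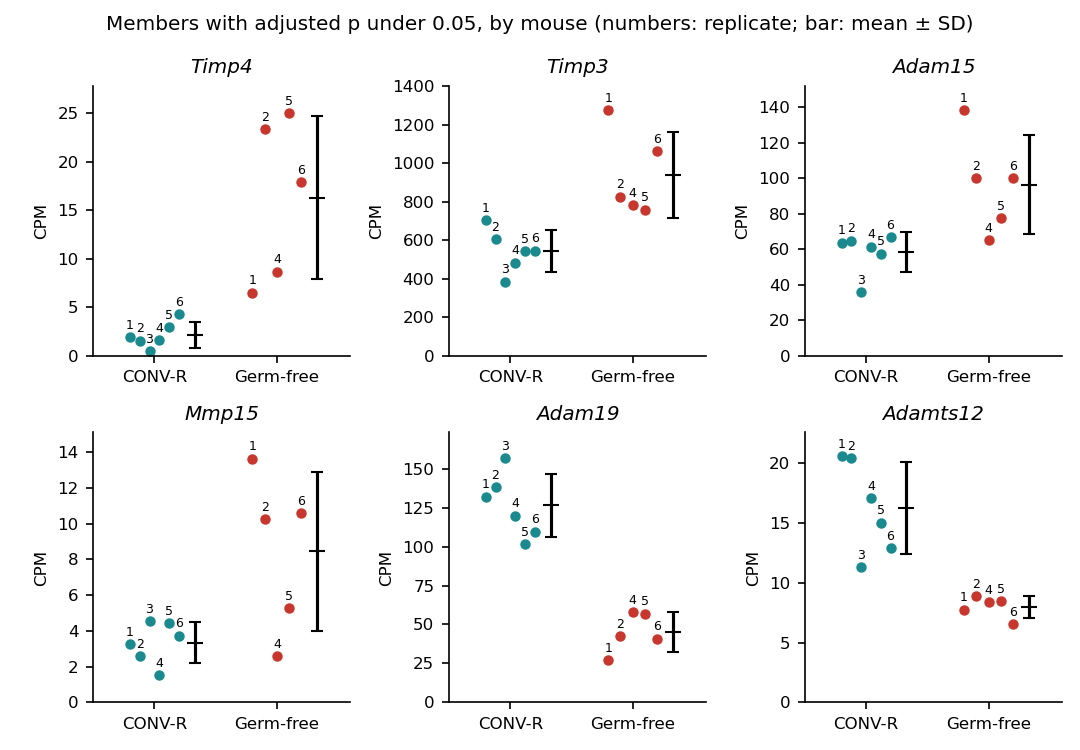
Level in CPM of the 6 members with an adjusted p under 0.05, 1 point for each mouse with its replicate number, and the mean ± SD of each group (6 CONV-R, teal; 5 Germ-free, red). The groups are apart for *Timp4*, *Timp3*, *Adam19* and *Adamts12*, and overlap for *Adam15* and *Mmp15* through Germ-free replicate 4.

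In the ADAM family, *Adam19* fell in Germ-free ECs. It encodes meltrin beta, a sheddase of neuregulins with a part in heart development, and lies on chromosome 11 (46055992 to 46147343). CONV-R mice had 102 CPM at the lowest, a median of 126 and 157 at the highest, whereas Germ-free mice had 26.9, 42.4, 57.7, 56.9 and 40.8 CPM for replicates 1, 2, 4, 5 and 6. Every Germ-free value was under every CONV-R value, and the gap between the groups, from 57.7 to 102 CPM, was wider than the SD of either. The means were 126 ± 20.2 (SD, n = 6) and 44.9 ± 12.8 CPM (SD, n = 5), a log2 fold change of -1.49 (standard error 0.18, 95% interval -1.87 to -1.12, adjusted p = 7.36e-05), or 2.82-fold higher in CONV-R ECs. It was called in all 21 alternative fits, with log2 fold changes from -1.61 to -1.24 and adjusted p-values up to 0.0184. With the Kupffer cell covariate the log2 fold change was -1.31. The antisense genes *Gm16033* and *Gm16034*, which overlap its exons, had mean levels of 0 CPM in both groups.

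*Adam15*, or metargidin, an ADAM of endothelial junctions with an integrin-binding motif, was higher in Germ-free ECs. It lies on chromosome 3 (89338542 to 89349996). CONV-R mice had 36.1 CPM at the lowest, a median of 62.7 and 66.7 at the highest, and Germ-free mice 138, 100, 65.1, 77.7 and 100 CPM for replicates 1, 2, 4, 5 and 6. Germ-free replicate 4 lay within the CONV-R range, and the other 4 lay above it. The log2 fold change was 0.72 (standard error 0.18, 95% interval 0.33 to 1.11, adjusted p = 0.0236), between means of 58.5 ± 11.4 (SD, n = 6) and 96.3 ± 27.9 CPM (SD, n = 5). The adjusted p rose above the threshold without Germ-free replicate 1 (log2 fold change 0.55, adjusted p = 0.0718), without Germ-free replicate 6 (0.71, adjusted p = 0.0563), without both (0.47, adjusted p = 0.232) and with the Kupffer cell covariate (0.48, adjusted p = 0.721). The antisense gene *4731419I09Rik* shares 1263 of the 6145 exon bases of *Adam15* (20.6%) and had 0.395 and 1.01 CPM.

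The other 8 tested ADAMs did not pass the threshold. *Adam23*, a catalytically inactive relative known as an adhesion molecule of neurons, had 1693 ± 266 CPM in CONV-R (SD, n = 6) and 2069 ± 399 in Germ-free ECs (SD, n = 5; log2 fold change 0.29, 95% interval -0.0016 to 0.58, adjusted p = 0.22). *Adam10*, the sheddase of Notch receptors and VE-cadherin, had 244 ± 41.4 and 280 ± 47.4 CPM (log2 fold change 0.20, 95% interval -0.09 to 0.49, adjusted p = 0.417), and *Adam17*, which releases tumor necrosis factor, had 120 ± 6.82 and 118 ± 15.4 CPM (log2 fold change -0.02, 95% interval -0.25 to 0.21, adjusted p = 0.935). For *Adam17* the interval excluded a log2 difference of the size seen for *Adam19* or *Adam15*. *Adam9* had a log2 fold change of -0.28 (95% interval -0.50 to -0.07, adjusted p = 0.103), with an interval that left out 0. Its groups overlapped narrowly, with 134.8 CPM as the lowest CONV-R and 135.1 CPM as the highest Germ-free value. *Adam12*, *Adam8*, *Adam22* and *Adam32* had log2 fold changes of 0.01, -0.32, -0.46 and -0.41 with intervals that included 0.

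Among the ADAMTS enzymes, *Adamts12* fell in Germ-free ECs. It encodes a secreted protease known to cleave cartilage oligomeric matrix protein and lies on chromosome 15 (11064790 to 11349231). CONV-R mice had 11.3 CPM at the lowest, a median of 16.0 and 20.6 at the highest, and Germ-free mice 7.73, 8.89, 8.38, 8.46 and 6.51 CPM for replicates 1, 2, 4, 5 and 6. The groups did not overlap, and the Germ-free values lay close together. With means of 16.2 ± 3.85 (SD, n = 6) and 7.99 ± 0.926 CPM (SD, n = 5), the log2 fold change was -1.02 (standard error 0.20, 95% interval -1.44 to -0.60, adjusted p = 0.00449), or 2.03-fold higher in CONV-R ECs. With the Kupffer cell covariate it was -0.96, with an adjusted p of 0.216. *Adamts7*, its closest relative in the family, did not pass (log2 fold change 0.37, adjusted p = 0.2).

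The other 8 tested ADAMTS genes were not called. Of 4 tested proteoglycanases, 3 had positive log2 fold changes, *Adamts1* of 0.58 (adjusted p = 0.121), *Adamts9* of 0.57 (adjusted p = 0.12) and *Adamts5* of 0.71 (adjusted p = 0.14), while *Adamts4* had -0.95 (adjusted p = 0.0864). *Adamts1*, which cleaves versican and aggrecan, spread widely among Germ-free mice, at 109, 234, 222, 298 and 412 CPM for replicates 1, 2, 4, 5 and 6, against 149 to 194 CPM in CONV-R mice. Germ-free replicate 1 lay below all CONV-R mice and the other 4 above them. Without that library *Adamts1* and *Adamts9* were called, *Adamts1* with a log2 fold change of 0.77 (adjusted p = 0.00635). *Adamts4*, the enzyme named aggrecanase 1, had 3.83 to 5.24 CPM in 4 Germ-free mice but 11.4 CPM in replicate 6, and 4.91 to 13.7 CPM in CONV-R mice. DESeq2 called it (log2 fold change -0.94, adjusted p = 0.0415). It was also called with limma voom, without a low-count filter, with a block for the replicate number and without CONV-R replicate 3. The fits without Germ-free replicate 6, alone or together with replicate 1, called it too, and the remaining fits did not. *Adamts10*, which binds fibrillin, had 63.7 ± 10.9 and 53.1 ± 12.4 CPM (log2 fold change -0.26, 95% interval -0.61 to 0.09, adjusted p = 0.371).

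*Adamts13*, whose product cleaves von Willebrand factor and which in liver is known from stellate cells, was barely counted, with 3 counts over the CONV-R and 5 over the Germ-free libraries, all 5 of them in Germ-free replicate 2. It was not tested. Of 10 stellate cell markers 4 were tested; edgeR called 0 (2 with an unadjusted p under 0.05) and DESeq2 called 1, *Lrat*, as lower in Germ-free ECs. *Lrat* had a log2 fold change of -1.43 (adjusted p = 0.0865 with edgeR and 0.0331 with DESeq2) and *Hgf*, the other gene with an unadjusted p under 0.05, 0.46. The 10 markers summed to 105.6 to 272 CPM in CONV-R and 208 to 274.7 in Germ-free libraries. Most of this was *Hgf*, the hepatocyte growth factor gene, which liver ECs are also known to express, at 91.6 to 257 and 200.2 to 269 CPM; *Rgs5* reached 20.2 CPM and *Lrat* 7.83, while *Col1a1*, *Pdgfrb* and *Ngfr* did not exceed 1.84 CPM in any library. The ADAMTS-like genes gave 0 calls among 3 tested with edgeR, with 0 at an unadjusted p under 0.05, and 0 calls among 4 with an adjusted p from DESeq2. DESeq2 gave *Adamtsl3* an unadjusted p of 0.0063 and no adjusted p, from 1 count over the CONV-R and 20 over the Germ-free libraries, 12 of them in Germ-free replicate 2. *Adamtsl4*, a fibrillin-binding protein of the eye, had 3.76 ± 0.947 CPM in CONV-R (SD, n = 6) and 3.67 ± 1.85 in Germ-free ECs (SD, n = 5; log2 fold change -0.03, 95% interval -0.77 to 0.71, adjusted p = 0.978). *Adamtsl2* was lower still, at 0.155 to 2.67 and 0.520 to 3.44 CPM, with an interval from -0.82 to 1.87.

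In the MMP family 8 of 23 genes were tested and *Mmp15* was called as higher. It encodes MT2-MMP, a membrane-anchored protease that can activate pro-MMP2, and lies on chromosome 8 (95352268 to 95375080). CONV-R mice had 1.53 CPM at the lowest, a median of 3.49 and 4.54 at the highest, and Germ-free mice 13.6, 10.2, 2.57, 5.29 and 10.6 CPM for replicates 1, 2, 4, 5 and 6. Replicate 4 lay within the CONV-R range and replicate 5 just above it. The log2 fold change was 1.35 (standard error 0.38, 95% interval 0.55 to 2.15, adjusted p = 0.0378), from means of 3.35 ± 1.15 (SD, n = 6) and 8.46 ± 4.45 CPM (SD, n = 5). The call was lost when any of CONV-R replicates 1, 2, 4, 5 or 6 or Germ-free replicates 1, 2 or 6 was left out, with log2 fold changes of 1.10 to 1.44 and adjusted p-values of 0.0518 to 0.123. With limma voom it was 1.29 (adjusted p = 0.0762), with limma on the deposited normalised values 0.90 (adjusted p = 0.0717), without Germ-free replicates 1 and 6 together 0.85 (adjusted p = 0.359) and with the Kupffer cell covariate 0.72 (adjusted p = 0.855).

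The most abundant MMP was *Mmp14*, the membrane-anchored collagenase MT1-MMP, and it had 96.2 ± 23.5 CPM in CONV-R (SD, n = 6) and 96.8 ± 26.1 in Germ-free ECs (SD, n = 5). Its log2 fold change of 0.01 had a 95% interval from -0.37 to 0.39 (adjusted p = 0.986). *Mmp19*, a basement membrane protease, had 5.47 ± 1.95 and 5.93 ± 2.86 CPM (log2 fold change 0.10, 95% interval -0.57 to 0.77, adjusted p = 0.891); its exons share 22.3% of their bases with *Tmem198b*. The direction of both changed between alternative fits. The gelatinases *Mmp2* and *Mmp9*, which degrade denatured collagen and collagen IV, were under the filter. *Mmp2* had a count in 4 of 11 libraries and at most 0.402 CPM, and *Mmp9* had a count in 9 and at most 0.869 CPM, in Germ-free replicate 2. The 4 secreted collagenases were not tested either, and 9 markers of neutrophils, which carry MMP8 and MMP9, summed to no more than 3.68 CPM in any library.

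When levels were compared per kilobase of exon, ADAMs, 1 inhibitor and the secreted proteoglycanase *Adamts1* led the family. Over the 11 mice the order was *Adam23* with 104 ± 20.7 CPM per kb (SD), *Timp3* with 89.1 ± 32.1, *Adam10* with 53.0 ± 9.36, *Adamts1* with 39.4 ± 15.8, *Adam9* with 31.7 ± 3.95, *Adam17* with 16.6 ± 1.53, *Mmp14* with 16.2 ± 3.93, *Adam19* with 12.6 ± 6.41 and *Adam15* with 12.3 ± 4.50. *Adam23* was ahead of *Timp3* in CONV-R ECs, at 94.6 against 67.0 CPM per kb, and level with it in Germ-free ECs, where both stood at 116. The order depended in part on the length used. Per kb of the longest coding transcript the 5 leading genes kept their places over the 11 mice, with 290 for *Adam23*, 154 for *Timp3*, 56.7 for *Adam10*, 42.8 for *Adamts1* and 32.3 for *Adam9*. Below them the order changed, since *Mmp14* at 29.8 lay above *Adam17* at 26.5, and *Adam15* at 25.4 above *Adam19*. Except for *Adam9* and *Adam17*, neighbours in the order per kb of exon lay within the sum of their SDs, and with the other length *Mmp14* came between these. The order per kb of exon was also not the same in each group. In CONV-R ECs *Adam9* at 34.5 lay above *Adamts1* at 32.2, and *Adam19* at 17.8 lay above *Adam17* at 16.7 and *Mmp14* at 16.1, whereas in Germ-free ECs *Adam19* stood at 6.32, below *Adam15* at 15.7. *Timp4* stood at 0.364 CPM per kb in CONV-R and 2.76 in Germ-free ECs, so that even in Germ-free mice its level was far under the 116 CPM per kb of *Timp3*.

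**Figure D3:**
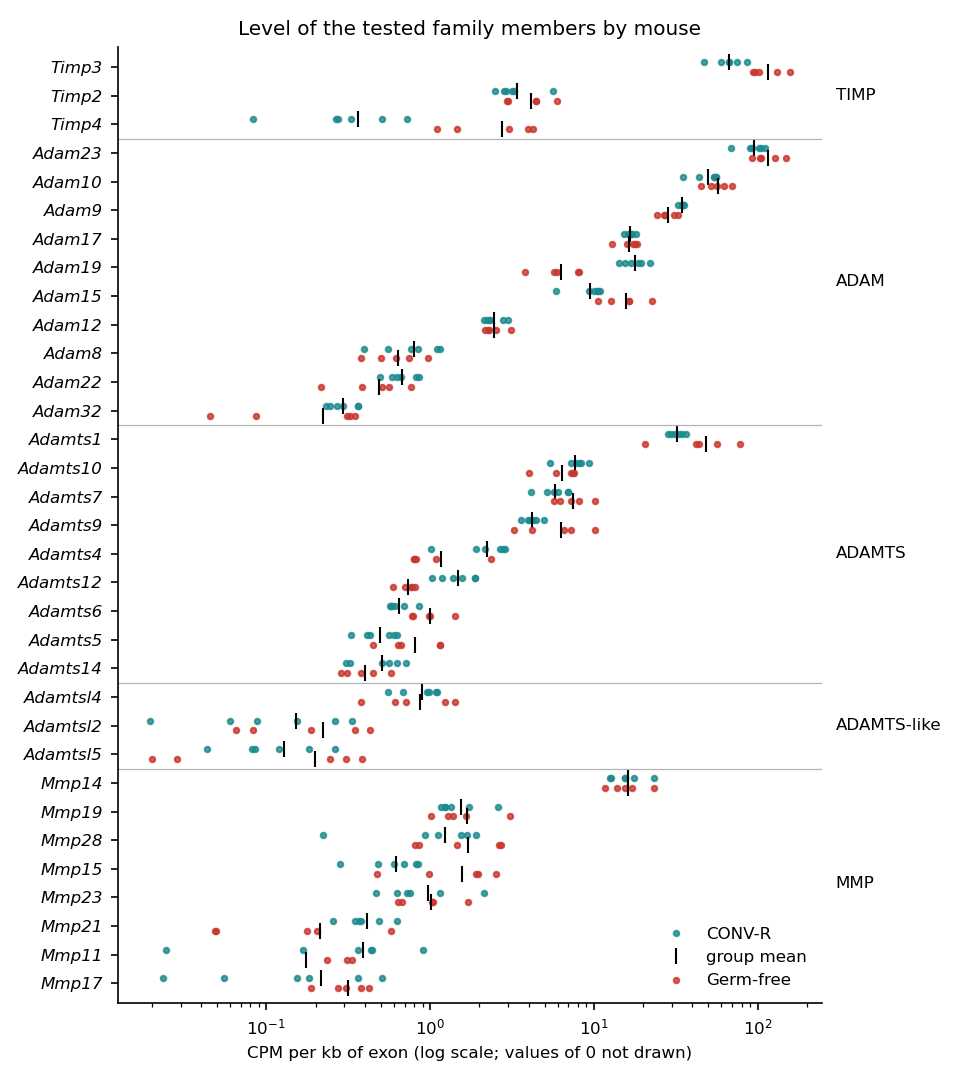
Level of each of the 33 tested members in CPM per kb of exon on a log scale, by family, 1 point for each of the 6 CONV-R (teal) and 5 Germ-free (red) mice and a bar at each group mean; values of 0 are not drawn. *Adam23* and *Timp3* lie highest, and the points of the groups are apart for *Timp4*, *Timp3*, *Adam19* and *Adamts12*.

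The remaining 46 members had too few counts for the test, and each of them had at least 1 count in some library. They included 15 of the 16 ADAMs known mainly from the male reproductive tract, the gelatinases, the secreted collagenases, *Timp1* and *Adamts13*. Germ-free replicate 2 had a count in 42 of the 46, while the other libraries had one in 11 to 25, and 6 of the 46 were counted there and nowhere else. Its summed level over the 46 genes was 31.1 CPM, against at most 9.45 CPM in any other library. *Adam33*, named after its values were seen, was among them: it had at most 0.323 CPM in CONV-R mice, and 0.325, 4.15, 1.14, 0 and 2.44 CPM in Germ-free replicates 1, 2, 4, 5 and 6. The groups overlapped through Germ-free replicate 5 at 0 counts, and DESeq2 called it as higher (log2 fold change 3.27, adjusted p = 0.00832).

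**Figure D4:**
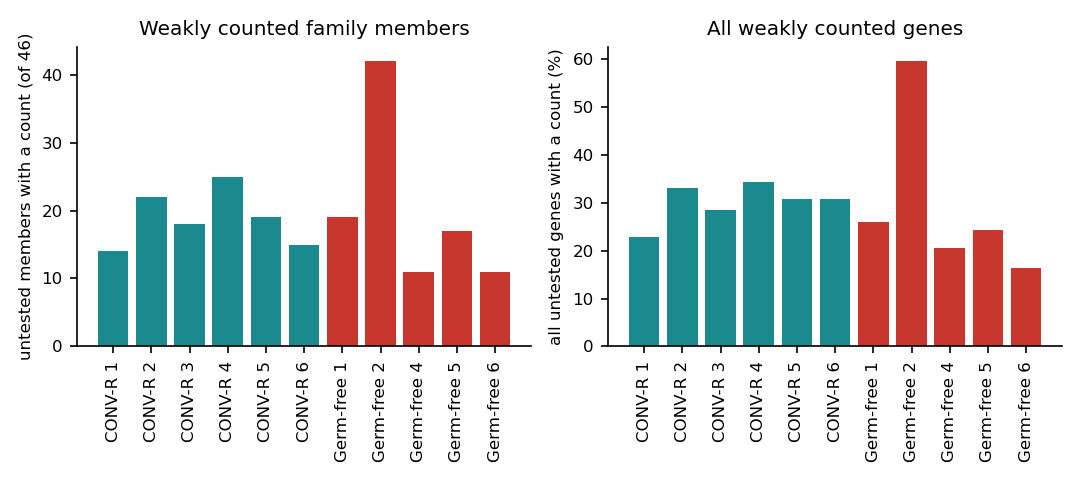
For each of the 11 libraries, the number of the 46 untested members with at least 1 count (left) and the percentage of all 16402 untested genes with at least 1 count (right). Germ-free replicate 2 stands above the rest in both, with 42 members and 59.6%.

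Genes that work with these proteases were compared in the same fit. Of the convertases that cut the propeptide of ADAMs and ADAMTS enzymes, 2 of 3 tested were higher in Germ-free ECs, *Pcsk5* (log2 fold change 1.77, adjusted p = 0.0132) and *Pcsk7* (0.42, adjusted p = 0.029). *Pcsk7* had 45.0 to 59.4 CPM in CONV-R and 61.2 to 76.3 CPM in Germ-free mice, without overlap, while *Furin* did not pass (0.14, adjusted p = 0.725). Of 3 trafficking partners of ADAM17 and 4 tested tetraspanins of ADAM10, edgeR and DESeq2 called 0, and 0 and 1 had an unadjusted p under 0.05 with edgeR; *Rhbdf2* and *Tspan14* had log2 fold changes of 0.16 and 0.27. Among inhibitors of other kinds edgeR called 0 of 3, and *A2m*, encoding alpha-2-macroglobulin, was the 1 with an unadjusted p under 0.05 (log2 fold change 2.26, adjusted p = 0.0518) and the 1 that DESeq2 called. Of 7 relatives that the naming rule leaves out, 3 were tested with edgeR and 1 of these had an unadjusted p under 0.05. Both tools called 0.

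Of 3 receptors that dock or clear these enzymes, *Cd44* was higher (log2 fold change 1.81, adjusted p = 0.0164) and *Lrp1*, which takes up TIMP3, had 1.55 (adjusted p = 0.0557). Both were highest in Germ-free replicate 6, with 41.8 and 94.0 CPM, the library with the highest sum of Kupffer cell markers. In the plasminogen system 1 of 3 tested genes was called, *Plat*, encoding tissue plasminogen activator, with 1.13 to 3.80 CPM in CONV-R and 4.86 to 8.38 CPM in Germ-free mice (log2 fold change 1.45, adjusted p = 0.0128); DESeq2 also called *Plaur*, encoding the urokinase receptor, which had 1.09 (adjusted p = 0.0586 with edgeR and 0.0207 with DESeq2). Of 5 tested substrates and cofactors of ADAMTS enzymes 1 was called, the matrix protein gene *Thbs1* (2.88, adjusted p = 0.00329), which had 0.478 to 4.52 CPM in CONV-R mice and 23.4, 21.5, 1.52, 21.3 and 10.7 CPM in Germ-free replicates 1, 2, 4, 5 and 6. *Vegfc*, a lymphatic growth factor gene, had 0.67 and was called by DESeq2 alone (adjusted p = 0.0651 with edgeR and 0.0334 with DESeq2), and *Vwf* had 0.76 (adjusted p = 0.223). No tested gene of these lists was called as lower in Germ-free ECs by edgeR, and over all tested genes 2.67% were.

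**Figure D5:**
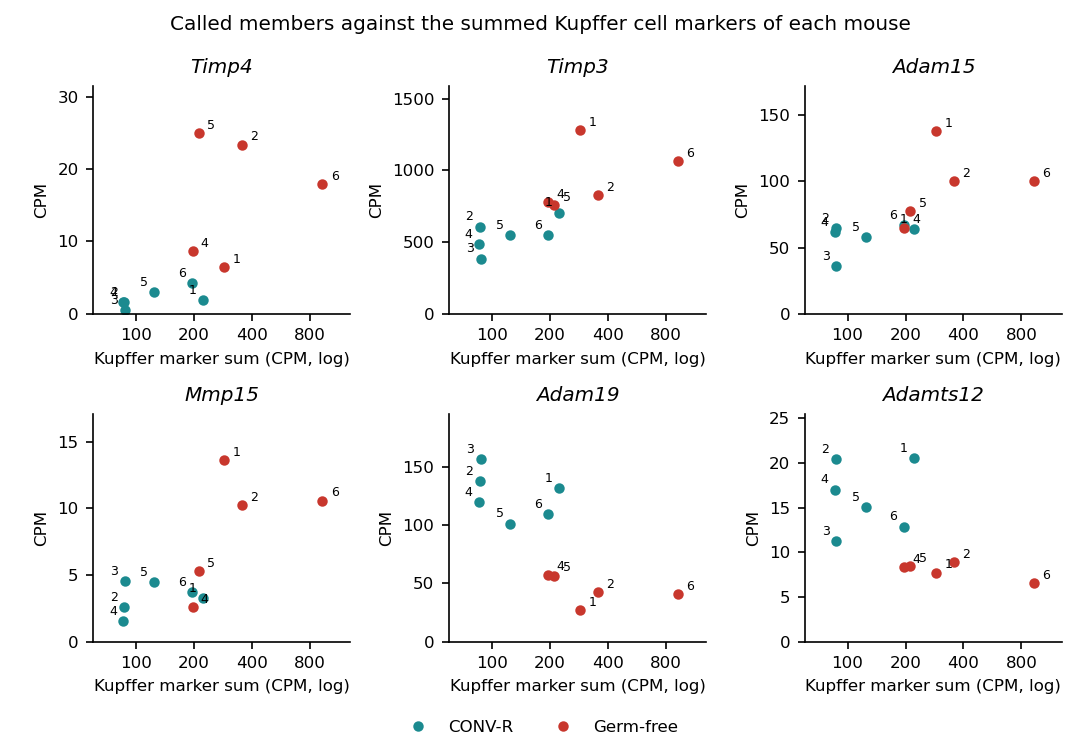
Level in CPM of the 6 called members (vertical axes) against the summed CPM of 10 Kupffer cell markers (horizontal axes, log scale), 1 point for each of the 6 CONV-R (teal) and 5 Germ-free (red) mice with its replicate number. At sums near 200 CPM, CONV-R replicates 1 and 6 and Germ-free replicates 4 and 5 lie side by side, with *Adam19* at 132 and 110 against 57.7 and 56.9 CPM. These mice were picked after seeing the data, and the part of Kupffer cells was not tested.

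The Kupffer cell sums of some mice of both groups were alike, at 222.4 CPM in CONV-R replicate 1, 195.7 in CONV-R replicate 6, 196.8 in Germ-free replicate 4 and 211.5 in Germ-free replicate 5. These mice were picked after seeing the data, and the part of Kupffer cells in the differences was not tested. Among these 4 mice *Timp4* had 1.94 and 4.27 CPM in the CONV-R and 8.67 and 25.0 CPM in the Germ-free animals. *Adamts12* had 20.6 and 12.9 against 8.38 and 8.46 CPM. For *Timp3* the CONV-R animals had 705 and 547 CPM and the Germ-free animals 781 and 760 CPM. *Adam15*, at 63.8 and 66.7 against 65.1 and 77.7 CPM, and *Mmp15*, at 3.26 and 3.72 against 2.57 and 5.29 CPM, overlapped in these mice. Large-vessel markers gave 1 call among 7 with edgeR, *Cd34* as higher, and DESeq2 also called *Gja5* (log2 fold change 0.92, adjusted p = 0.0187 with DESeq2 and 0.0541 with edgeR); 4 of the 7 had an unadjusted p under 0.05. These were *Cd34*, *Gja5* and *Efnb2*, the last with a log2 fold change of 0.54, and *Rspo3*, a gene of central vein ECs, with -0.82; *Selp* had -0.66. The sum of the 7 was 358.1 to 795 CPM in CONV-R and 431.5 to 1057 CPM in Germ-free mice. The highest sum was that of Germ-free replicate 1, which also had the highest *Timp3*, *Adam15* and *Mmp15*. CONV-R replicates 5 and 6 had sums of 795 and 727 CPM, and Germ-free replicates 4, 5 and 6 had 449.5, 431.5 and 563.7 CPM. *Timp3* had 546 and 547 CPM in the former and 781, 760 and 1062 CPM in the latter, while *Adam15* and *Mmp15* overlapped between them. The part of large-vessel cells was not tested. Cholangiocyte markers summed to 0.137 to 8.96 and 13.6 to 36.8 CPM, with *Spp1* called as higher among 2 tested, both with an unadjusted p under 0.05 with edgeR. The sums were apart through *Spp1*, and the groups overlapped for each of the other markers of this list. In Germ-free replicates 4 and 5 *Spp1* made 13.33 and 12.96 of 13.62 and 13.75 CPM. *Krt19*, the other tested marker, had 0 CPM in both of these libraries (log2 fold change 2.87, adjusted p = 0.0959 with edgeR). With edgeR 0 of 8 hepatocyte and 0 of 4 platelet markers were called, with 1 and 0 at an unadjusted p under 0.05 and 0 of either list called by DESeq2, and none of the mesothelial markers was tested.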

How the data were processed

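Total RNA of sorted hepatic sinusoidal ECs was sequenced from 6 CONV-R and 5 Germ-free mice, grouped by the treatment label, 1 library per mouse. The authors deposited raw counts per gene, for which reads were trimmed, aligned to GRCm38 (STAR) and assigned to genes (featureCounts), and log2 values normalised across libraries with the DESeq method; they left out 1 Germ-free library with few mapped reads. The annotation release and strand setting are not given in the sources used here.

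Counts of all 29307 genes were filtered with filterByExpr, scaled by TMM and compared with edgeR 4.0.16's quasi-likelihood test in R 4.3.3 (Benjamini-Hochberg adjustment over 12905 genes, threshold 0.05, no covariate). CPM are TMM-scaled, log2 CPM used a prior count of 2, and exon lengths and positions came from GENCODE M21 on GRCm38, matched by identifier for all 79 members. Depth was 7242717 to 16164588 counts. Permutation tests of single members were exact and two-sided. The tests were tried on simulated data. The lymphocyte marker list is not reported here. Members with values were those called, all TIMPs, the 2 highest per kilobase of each other family, *Adam10*, *Adam17*, *Mmp14*, *Mmp2*, *Mmp9*, *Adamts13* and those without overlap; others were named after their values were seen. The members and lists were chosen with earlier results of these data known.

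Alternatives were DESeq2's size factors, DESeq2 1.42.0, limma 3.58.1 (voom, and on the deposited log2 values), no filter, 10 counts in every library, robust estimates, a block for the replicate number, each mouse left out, and, added after seeing the data, Germ-free replicates 1 and 6 left out and a Kupffer cell marker covariate. In the deviations from group means, 1 of the 5 same-numbered pairs correlated over 0.1, so the numbers were not taken as pairs. Mice are the replicates; cages and batches are not labelled.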

Additional observations from a re-analysis of the deposited data

Results flagged for a closer look

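Within groups, 2 of 32 sets of values (16 named members in each group) held 1 mouse far from the others by Dixon's criterion, which chance meets in about 1 of 20 sets. *Adam15* had 36.09 CPM in CONV-R replicate 3, with a gap to the nearest mouse of 0.704 of the group's range. *Timp2* had 21.95 CPM in CONV-R replicate 1, with a gap of 0.749 of the range.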

How the results depend on the processing

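Without a low-count filter 10 of 79 members were called, 7 of them higher, against 4.48% of 25329 genes. With Germ-free replicates 1 and 6 left out, 2 were higher. With the Kupffer cell marker covariate 1 was called, 0 higher and 1 lower; this covariate differs between the groups. Fits without 1 mouse gave 5 to 7 called members, of which 2 to 4 were higher (2 without Germ-free replicate 6) and 2 to 3 lower. DESeq2 called 8 members. Directions changed for members near 0. *Mmp14* had -0.007038 without a filter, -0.003423 with voom, -0.12 with the covariate and -0.16 to 0.14 with 1 mouse left out. *Mmp19* had -0.008401 with voom and -0.23 to 0.31 with 1 mouse left out, and *Timp2* -0.21 with the covariate. With 1 mouse left out, *Adam17* had -0.06223 to 0.05163 and *Adamtsl4* -0.27 to 0.16. The causes were not tested. *Timp4* was not among the genes with 10 counts in every library. The smallest counts limit *Timp1*, *Mmp2*, *Mmp9* and *Adamts13*.

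With a replicate block over the 10 libraries whose numbers occur in both groups, 7 members were called, 4 higher and 3 lower, and *Mmp14* had -0.06316. The same 10 libraries without the block also gave 7; over all genes 1101 were called with the block and 931 without. Same-numbered libraries correlated by 0.201, 0.0482, -0.0144, 0.024 and 0.0945, and 2 of 5 Germ-free libraries correlated best with their own number.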
